A study of Rattus norvegicus with 111 samples.

Results

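Fetal liver of rats whose dams had received PFO5DoA at 3 mg/kg/d was compared with fetal liver of vehicle controls. PFO5DoA and PFO4DA are perfluoroalkyl ether carboxylic acids, and PFO5DoA is the longer homologue, with a single further difluoromethoxy unit in its chain. The series holds 111 liver libraries from 56 pregnant Sprague-Dawley dams (Crl:CD(SD), about 11 to 12 weeks old), each given one of these chemicals, or vehicle, by mouth from gestational day 18 to 22. The vehicle was 0.5% Tween-80, and livers were taken 2 to 4 hours after the last dose. The assay was TempO-Seq, in which adjacent probes are joined on their RNA and then read by sequencing. The rat panel held 22253 probes for 20924 genes. The comparison rests on 9 of the 111 libraries, 4 at 3 mg/kg/d (dams 2274, 2275, 2281 and 2282) and 5 at 0 mg/kg/d (dams 2263, 2264, 2265, 2278 and 2280), each from a different dam. Beside them stand the fetal libraries of PFO5DoA at 0.1 (2 dams), 0.3 (3), 1 (3), 10 (4) and 30 mg/kg/d (3), the maternal libraries of the same dams, and fetal libraries of PFO4DA with 6 controls of their own and 4 dams at each of 0.3, 1, 3, 10, 30 and 62.5 mg/kg/d. The labels do not say how many fetuses of a litter gave a sample.

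Which of a dam's 2 libraries is fetal was decided from the expression values, because the column names carry the dam but not the life stage. The only library of dam 2286, which was dosed at 30 mg/kg/d and is labelled maternal, served as the reference. Of each dam's pair, the library with the higher Pearson's r to it, over log2(CPM + 1) of all genes (CPM: counts scaled to a fixed library total), was taken as maternal and the other as fetal. In the 9 dams at 3 and 0 mg/kg/d the fetal libraries had r between 0.872 and 0.917 and the maternal ones between 0.943 and 0.982. The smallest gap within a dam was 0.0524. Rank correlation gave the same assignment in 9 of 9 dams. These values chose the libraries and are given as a description. A sixth control dam (2279) was left out, since its fetal library held 45505 counts. Among the control dams, the maternal library of dam 2263 had the lowest r to the reference of the maternal libraries used.

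The fetal liver at the end of gestation is both a blood-forming organ and an organ that is taking on the metabolic tasks of the adult liver. Perfluoroalkyl acids as a class are known to act on the rodent liver through the fatty acid receptor PPAR alpha and related nuclear receptors, whose target genes serve fatty acid transport and oxidation. None of the 20311 gene identifiers could be paired with a gene name here, so neither the genes of these pathways nor the markers of fetal hepatocytes and blood-forming cells were looked up. Genes are therefore described by their levels and responses, and 4 by identifier. In bulk liver, fewer cells of a type and less RNA per cell cannot be told apart.

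Fetal libraries held 9694608 to 11809874 counts in the controls and 9928821 to 13993891 at 3 mg/kg/d, and between 13720 and 15746 genes had a count. Control dam 2278 stood apart in a small set of genes: 28 genes, each at 5 CPM or more, were 20-fold or more above every other fetal library there, against 0 or 1 such gene in the other libraries. They held 0.304% of its counts. In the first run of dam identifiers (2263 to 2277) and in the second (2278 to 2288) the plate wells follow the dose order, so well position and dose cannot be told apart.

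In fetal liver at 3 mg/kg/d there were 458 rises and 357 falls, 7.08% of the 11509 genes tested (edgeR quasi-likelihood test, Benjamini-Hochberg adjusted p under 0.05, 1 fit over the 22 fetal libraries of the tested PFO5DoA doses). Large changes were more often rises than falls. The median log2 fold change was 1.12 for the rises, -0.98 for the falls and -0.03 over all genes tested. Genes past this threshold are referred to as called. At least 2-fold changes made up 262 of the rises and 176 of the falls. At least 8-fold changes numbered 55 among the rises and 8 among the falls, and at least 16-fold changes 33 and 2. Of those 33 rises, 11 had a control mean of at least 1 CPM. Among all called genes, 76 rises and 3 falls averaged under 1 CPM in the controls. The sizes of rises and falls were not compared at matched control levels. Of the 458 rises, 4 had no count in any control library. With these 4 set to their bound of 3 counts over the control group, the median stayed at 1.12 and 32 rises were at least 16-fold.

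**Figure D1:**
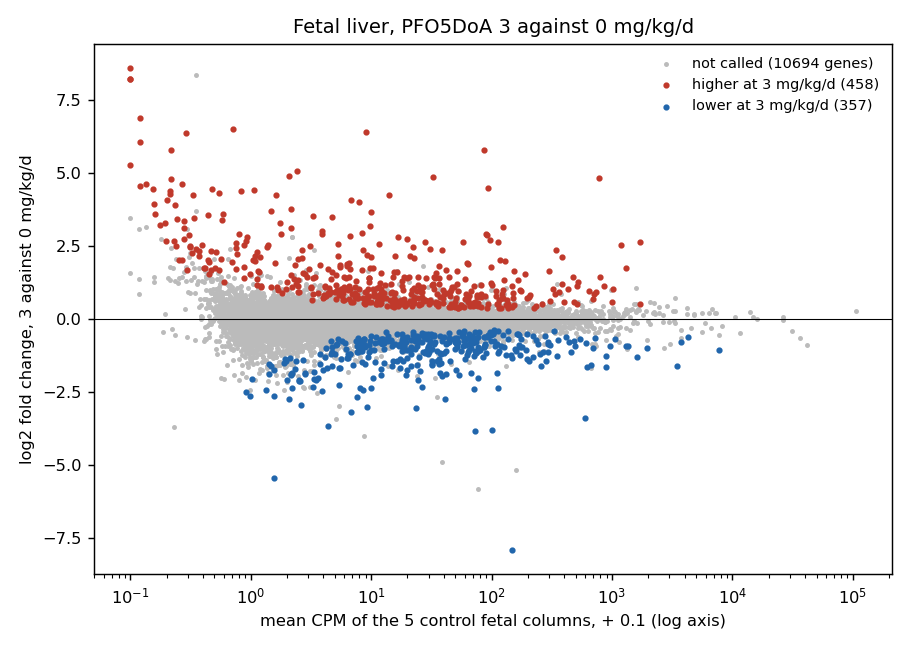
Log2 fold change of each tested gene in fetal liver at 3 mg/kg/d PFO5DoA (vertical axis) against its mean CPM in the 5 control libraries plus 0.1 (log axis); each point is a gene, red for the 458 rises and blue for the 357 falls. The largest rises sit at the left, at low control levels, and several stand between 10 and 1000 CPM. The lowest point at the bottom right of the falls is ENSRNOG00000017786, whose control mean rests on a single library.

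The falls had higher control CPM than the rises, which the choice of called genes favours. A gene low in the controls can be called a rise but hardly a fall. Counts are of ligated probes, so CPM of different genes also reflect their probes. The median control mean was 29.8 CPM for the falls, 11.9 CPM for the rises and 10.7 CPM for all genes tested. At 3 mg/kg/d the order was reversed, with median means of 14.3 CPM for the falls, 28.1 CPM for the rises and 10.5 CPM for all. Among the rises, 6 genes averaged 1000 CPM or more in the controls and 21 did at 3 mg/kg/d. Among the falls the number of such genes went from 9 to 4. In 376 of the rises every dosed library lay above every control library, and in 262 of the falls every dosed library lay below. Over all genes tested such separation was seen in 8.14%, in 4.63% upwards and 3.51% downwards. The genes were called on these same libraries, which favours their separation, so these numbers are a description.

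The genes that rose took up a larger part of the counts in every dosed dam. Their summed share of a library's counts was 2.95, 3.33, 3.28, 3.30 and 3.00% in control dams 2263, 2264, 2265, 2278 and 2280. It was 10.4, 9.97, 9.03 and 12.4% in dosed dams 2274, 2275, 2281 and 2282. The controls lay close together, the dosed dams spread more widely, and the groups were far apart (3.17 ± 0.183%, SD, n = 5, and 10.5 ± 1.41%, SD, n = 4). The summed share of the falls was 5.07, 5.87, 5.70, 5.01 and 4.76% in the same control dams and 2.60, 2.47, 2.56 and 2.62% in the dosed dams. Here the dosed dams were the tighter group (2.56 ± 0.0668%, SD, n = 4, against 5.28 ± 0.479%, SD, n = 5). Part of the gain of the rises came from 1 gene, whose mean went from 777 to 22347 CPM. The gain was thus not spread evenly over the 458 genes. The genes were chosen on these libraries, so the shares describe the size of the change and carry no test.

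**Figure D2:**
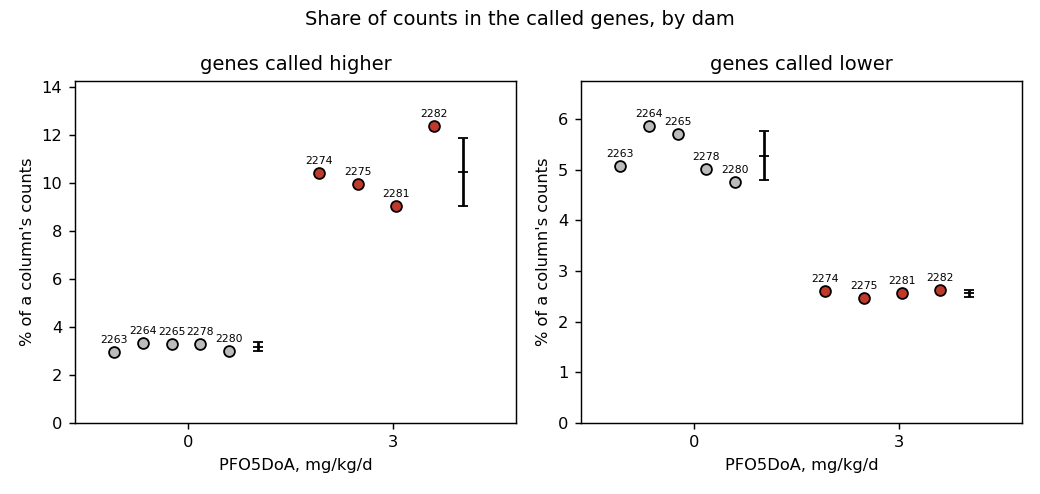
Percentage of each fetal library's counts in the 458 genes that rose (left) and the 357 that fell (right) at 3 mg/kg/d PFO5DoA, by dose in mg/kg/d; each point is a dam, numbered, and the bar is the mean ± SD. Dosed dams lie between 9.03 and 12.4% on the left, above the controls at 2.95 to 3.33%, and between 2.47 and 2.62% on the right, below the controls at 4.76 to 5.87%.

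The 15 largest rises, taken from genes averaging 5 CPM or more in the dosed or the control group and higher than the control mean in each dosed library, had log2 fold changes from 4.27 to 6.52. In 15 of 15 the groups did not overlap, which the choice favours, against 4.63% of all genes tested that were separated upwards. Their control means ran from 0.117 to 777 CPM and their means at 3 mg/kg/d from 7.09 to 22347 CPM. The largest of them was ENSRNOG00000019441. It had 1 to 14 counts in a control library, at 1.40, 0.600, 0.807, 0.177 and 0.0928 CPM in dams 2263, 2264, 2265, 2278 and 2280. At 3 mg/kg/d it was at 42.6, 50.9, 52.9 and 78.5 CPM in dams 2274, 2275, 2281 and 2282. The lowest dosed library was far above the highest control, and the controls held 31 counts of this gene in all. Its log2 fold change, with standard error, was 6.52 ± 0.69 (edgeR, adjusted p = 3.11e-06), and 4 of 4 dosed libraries exceeded each control.

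ENSRNOG00000055221, the second largest rise, moved from a low to a high level. It was at 6.82, 15.3, 6.55, 9.98 and 5.75 CPM in the controls and at 670, 825, 754 and 777 CPM in the dosed libraries, both in the order of dams given above. The dosed dams lay close together, at 757 ± 64.8 CPM (SD, n = 4), and far above each control. Its log2 fold change was 6.41 ± 0.34 (SE; edgeR, adjusted p = 9.18e-11).

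The gene with the highest CPM among the 15 largest rises was at 642, 538, 657, 1306 and 744 CPM in the controls and at 28181, 15794, 17710 and 27704 CPM in the dosed dams. Dosed dams 2274 and 2282 were higher than 2275 and 2281, and dam 2278 was the highest control. It rose by 4.85 ± 0.38 on the log2 scale (SE; edgeR, adjusted p = 1.44e-08).

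The 15 largest falls by the same rule ranged from 2.33 to 7.90 on the log2 scale. In 14 of 15 the groups did not overlap, which the choice favours. Over all genes tested every dosed library lay below every control in 3.51%. The largest by fitted value, ENSRNOG00000017786, rests on control dam 2278 alone, where it was at 728 CPM. In control dams 2263, 2264, 2265 and 2280 it was at 0.602, 2.50, 1.51 and 0.650 CPM, and in the dosed dams at 0.591, 0.717, 0.376 and 0.725 CPM, so the groups overlapped. Its log2 fold change was -7.90 (edgeR, adjusted p = 0.0414), and without dam 2278 it was -1.11 (edgeR, adjusted p = 0.581, within a range of 0.0266 to 0.581 over the alternatives). It is 1 of the 28 genes that set this library apart.

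ENSRNOG00000036984 fell in every dosed dam. It was at 98.2, 102, 46.2, 39.9 and 77.8 CPM in the controls and at 5.07, 5.73, 3.76 and 5.98 CPM in the dosed dams. The controls varied among themselves, and the highest dosed library was well below the lowest control. Its log2 fold change was -3.82 ± 0.27 (SE; edgeR, adjusted p = 2.28e-09), with 4 of 4 dosed libraries under each control. The next largest fall went from 115, 80.6, 146, 75.0 and 82.1 CPM to 9.79, 8.42, 3.95 and 6.80 CPM (log2 fold change -3.78, edgeR, adjusted p = 3.85e-08). The gene of highest CPM among the other large falls went from 631, 1226, 538, 298 and 285 CPM in the controls to 46.9, 94.4, 64.9 and 25.3 CPM. Both groups of this gene were spread widely and still did not overlap (log2 fold change -3.36, standard error 0.57, edgeR, adjusted p = 0.000793).

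**Figure D3:**
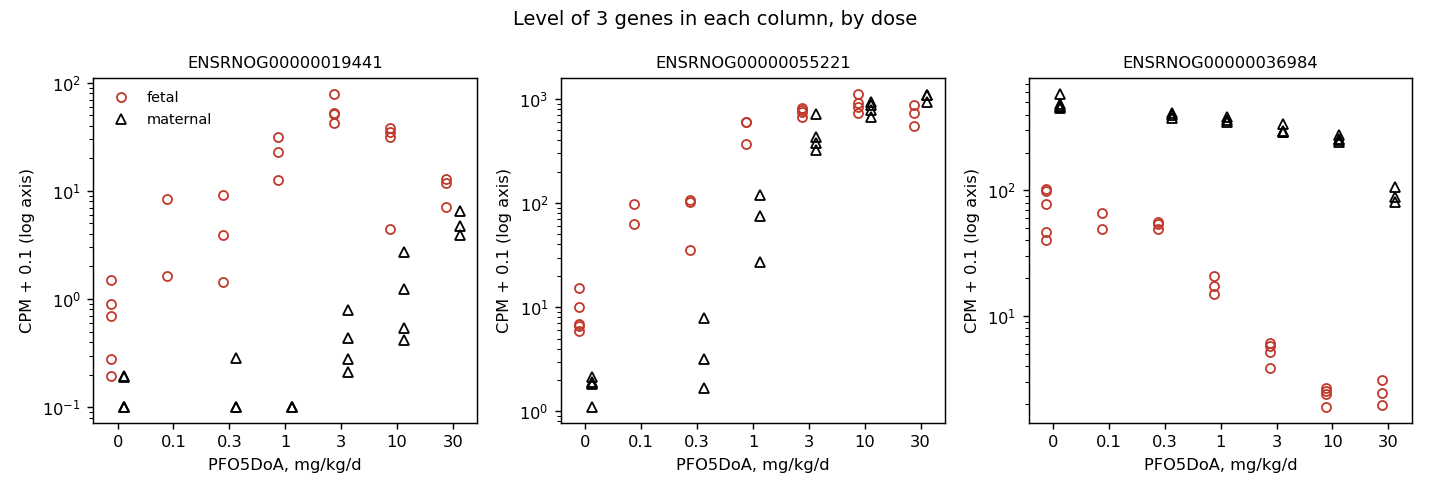
CPM plus 0.1 (log axis) of ENSRNOG00000019441, ENSRNOG00000055221 and ENSRNOG00000036984 in each library, by PFO5DoA dose in mg/kg/d; circles are fetal and triangles maternal libraries, and no maternal library is drawn at 0.1 mg/kg/d. In fetal liver at 3 mg/kg/d the first gene stands at 42.6 to 78.5 CPM, the second at 670 to 825 CPM and the third at 3.76 to 5.98 CPM, apart from the controls in each case.

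The dams fell into 2 runs of identifiers with controls of their own, and the response was compared between them. The first run had 3 controls and 2 dosed dams, the second 2 and 2, and no library was in both. Fitted alone, the first run gave 243 rises and 166 falls (2.25% and 1.54% of 10778 genes; edgeR, adjusted p under 0.05) and the second 81 rises and 13 falls (0.751% and 0.121% of 10783 genes). Of the 243 rises of the first run, 236 were tested in the second and 226 of these were higher there, against 48.7% of all genes, with a median log2 fold change of 1.65. The second run called 68 of them. Of the 166 falls, 160 were tested, 139 were lower in the second run, with a median of -0.77, and 10 were called. In the first run, on which they were chosen, the medians were 1.74 and -1.38. Of the 81 rises of the second run, 78 of 80 tested were higher in the first, and 13 of its 13 falls were lower there. Among genes tested in both runs, 396 were called in the first and 93 in the second. Of these, 78 were shared in the same direction, 19.7% of the first list and 83.9% of the second, and 0 in opposite ones.

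ENSRNOG00000055221 had a log2 fold change of 6.29 in the first run and 6.60 in the second. ENSRNOG00000036984 had -3.93 and -3.59. ENSRNOG00000019441 was called in each run, at 5.62 and 8.80, and the second value rests on control libraries of 2 and 1 counts. The large rise of highest CPM had 5.17 and 4.47. When only 3 and 0 mg/kg/d were fitted, 486 genes were called without the run and 652 with the run as a covariate. Among the 815 genes, 452 and 557 were called in the same direction in these fits. Leaving out each of the 9 dams in turn gave 538 to 844 called genes, with 538 without dam 2274. In each of these 9 fits, 416 of the 815 genes were called in the same direction, 254 rises and 162 falls.

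Maternal liver of the same dams gave fewer called genes at this dose. There 192 genes rose and 82 fell, 1.82% and 0.777% of 10560 genes tested (edgeR, adjusted p under 0.05). Of the 458 fetal rises, 411 were tested in maternal liver, 323 were higher there, against 47.5% of all genes, and 107 were called rises. Their median log2 fold change was 0.42 in maternal liver. Of the 357 fetal falls, 320 were tested, 247 were lower, 18 were called falls and the median was -0.27. Of the called genes tested in both livers, 125 were called in the same direction, which is 17.1% of the fetal list and 47.2% of the maternal one, and 5 in opposite directions. Both livers of a dam share the dam, so these lists are not from independent animals.

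The difference between the fetal and the maternal log2 fold change was tested with the dam as a block. It passed in 62 of 11140 genes, 0.557%, with 32 higher and 30 lower in fetal liver (edgeR, adjusted p under 0.05). The 32 genes had a median log2 fold change of 2.11 in fetal and -0.19 in maternal liver. The 30 genes had a median of -1.30 in fetal liver and, over the 28 tested in the maternal comparison, 1.42 in maternal liver. These genes were chosen for the difference, which favours the gap between the medians. In the fetal comparison alone, 27 of the 32 were called rises and 5 were not called. Of the 30, 17 were called falls, 3 were called rises and 10 were not called. This count moved when any 1 dam was left out, to between 25 and 40 without dams 2263, 2265, 2274, 2275, 2278, 2280, 2281 or 2282 and to 121 without dam 2264. For the called genes outside these 62, a difference between the livers was not shown.

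**Figure D4:**
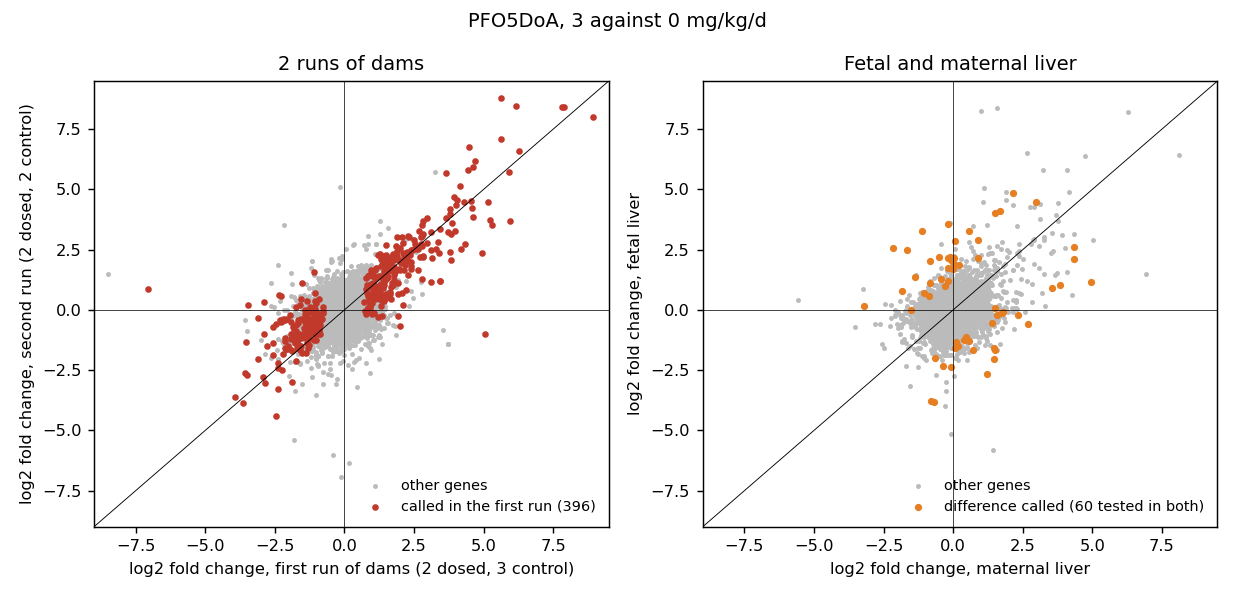
Log2 fold changes at 3 against 0 mg/kg/d PFO5DoA, each point a gene: the first run of dams (horizontal) against the second (vertical) in fetal liver on the left, and maternal (horizontal) against fetal liver (vertical) on the right, with the line of equality. Red marks the first run's called genes that the second run also tested, orange genes whose fetal and maternal responses differed. Red points lie mostly at the upper right and lower left, as 226 of 236 rises and 139 of 160 falls did, and orange points lie away from the line.

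ENSRNOG00000036984 was among the genes that differed between livers. In maternal liver it was at 461, 488, 453, 583 and 466 CPM in the controls and at 335, 290.5, 293 and 299 CPM at 3 mg/kg/d, again without overlap. The maternal fall of 0.69 on the log2 scale (edgeR, adjusted p = 0.00305) was smaller than the fetal one, with a difference of -3.06 and a 95% interval of -3.78 to -2.34 (edgeR, adjusted p = 0.00287). The large rise of highest CPM also differed. It started higher in maternal liver, at 3979 CPM against 777 CPM in fetal controls, and reached 17702 CPM in maternal and 22347 CPM in fetal liver at 3 mg/kg/d. Its response exceeded the maternal one by 2.68 (95% interval 1.83 to 3.53; edgeR, adjusted p = 0.00932). ENSRNOG00000055221 went from 0.998 to 2.04 CPM in maternal controls to 325 to 715 CPM, and the difference of -1.57 did not pass (95% interval -2.28 to -0.86; edgeR, adjusted p = 0.0757). ENSRNOG00000019441 had at most 1 count in a maternal control library and 1 to 6 counts in a dosed one, where the test gave no call (edgeR, adjusted p = 0.181). Its difference between the livers of 3.71 did not pass either (95% interval 1.14 to 6.27; edgeR, adjusted p = 0.36). Since a large fetal response was the reason for naming these genes, the differences between livers are biased by that choice.

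The genes that rose were more often higher in maternal than in fetal controls. Among the rises with a value in both livers, 28.7% of 439 were at least 2-fold higher in maternal than in fetal controls, against 14.9% of 11140 genes tested, and 11.4% were at least 2-fold higher in fetal controls, against 17.1%. Among the falls the shares were 22.4% and 23.3% of 352. The fetal controls in these ratios also served to call the rises. A gene low in them is more readily called a rise, which favours the higher maternal share. Since the libraries were assigned to a life stage by their likeness to a maternal library, these shares are a description without a test.

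The steps from 1 to 3 and from 3 to 10 mg/kg/d were tested directly, without the controls. The dams at 1 mg/kg/d were all of the first run and those at 3 mg/kg/d of both, so dose and run cannot be fully told apart in the first step. Between 1 and 3 mg/kg/d, 1 gene was higher and 3 were lower at 3 mg/kg/d, 0.0348% of the genes tested, with 823 genes at an unadjusted p under 0.05 (edgeR, adjusted p under 0.05). With DESeq2, 33 genes were called. With edgeR, none was called without dam 2272, 2274 or 2275, 1 without dam 2282 and 2 without dam 2271. ENSRNOG00000036984 was among the 3, with a log2 difference of -1.78 (95% interval -2.31 to -1.25; edgeR, adjusted p = 0.0171). For the next step, 9 genes were higher at 10 than at 3 mg/kg/d and 30 were lower, 0.339%, with 143 called by DESeq2. The edgeR count was 1 without dam 2274, 2 without dam 2284 and 20 without dam 2282. The next largest fall after ENSRNOG00000036984 was lower still at 10 mg/kg/d, by 1.83 on the log2 scale (edgeR, adjusted p = 0.0157).

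Against the same controls, the fetal genes called numbered 13 at the 0.3 dose, 276 at 1, 1690 at 10 and 3443 at 30 mg/kg/d (0.113%, 2.4%, 14.7% and 29.9% of genes tested; edgeR, adjusted p under 0.05). Since the doses share their controls, values at other doses are set beside those at 3 mg/kg/d and are no further support. The dams at 0.3 and 1 mg/kg/d were all of the first run and those at 30 mg/kg/d all of the second. Dose and run cannot be fully told apart at these doses. The 458 rises had median log2 fold changes of 0.29, 0.85, 1.12, 1.14 and 0.88 at 0.3, 1, 3, 10 and 30 mg/kg/d. The 357 falls had -0.19, -0.59, -0.98, -1.16 and -1.31. The median of the rises was thus no larger at 30 than at 3 mg/kg/d, whereas that of the falls was larger in size. The genes were chosen at 3 mg/kg/d, which favours larger medians there, so no shape of the dose response is drawn from them.

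The levels of 3 genes, named for their change at 3 mg/kg/d, were followed over the doses. ENSRNOG00000019441 had means of 4.74 ± 3.97, 22.3 ± 9.65, 56.2 ± 15.5, 27.2 ± 15.5 and 10.5 ± 3.03 CPM from the lowest to the highest tested dose (SD, n = 3, 3, 4, 4 and 3). Its mean was highest at 3 mg/kg/d, the dose it was chosen on, where the lowest of the 4 libraries, at 42.6 CPM, was above the highest at 10 mg/kg/d, at 38.4 CPM. The step from 3 to 10 mg/kg/d did not pass the test (log2 difference -1.05, 95% interval -2.09 to -0.0042; edgeR, adjusted p = 0.552). ENSRNOG00000055221 had means of 81.6 ± 40.1, 523 ± 136, 757 ± 64.8, 898 ± 162 and 720 ± 160 CPM at these doses (SD, same n). From 3 to 30 mg/kg/d these levels overlapped. ENSRNOG00000036984 had 53.2 ± 3.42, 17.7 ± 2.89, 5.14 ± 0.995, 2.29 ± 0.350 and 2.41 ± 0.578 CPM (SD, same n). Its libraries at 1, 3 and 10 mg/kg/d did not overlap, and those at 10 and 30 mg/kg/d did. For this gene too the step from 3 to 10 mg/kg/d did not pass (log2 difference -1.16, edgeR, adjusted p = 0.0807).

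The PFO4DA dams, which share no animal with the PFO5DoA dams, gave an independent view of the same genes. Fetal liver at 3 mg/kg/d PFO4DA gave 33 rises and 1 fall (0.295% and 0.00895% of 11172 genes; edgeR, adjusted p under 0.05). Of the 458 rises under PFO5DoA, 442 were tested, 370 were higher under PFO4DA at 3 mg/kg/d, against 48.7% of all genes, and 30 were called. Their median log2 fold change was 0.32 at 3 mg/kg/d, 0.61 at 10, 0.85 at 30 and 0.92 at 62.5 mg/kg/d. At the highest of these doses 309 of the 442 were called, where 4.71% of all genes were called higher. Of the 357 falls, 354 were tested, with medians of -0.10, -0.33, -0.64 and -0.87 at these doses. At 62.5 mg/kg/d 253 of the 354 were called, where 5.93% of all genes were called lower. The medians at the highest PFO4DA dose were thus below those of 1.12 and -0.98 on which the genes had been chosen.

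Genes chosen in PFO4DA alone were followed the other way. At 30 mg/kg/d PFO4DA there were 366 rises and 353 falls (3.28% and 3.16% of 11172 genes; edgeR, adjusted p under 0.05). Under PFO5DoA, 365 and 351 of them were tested. At 3 mg/kg/d PFO5DoA, 359 of the 365 rises were higher and 256 were called, where 3.98% of all genes were called higher. Of the 351 falls, 340 were lower and 182 were called, where 3.1% of all genes were called lower. The median log2 fold change of these rises under PFO5DoA was 0.30 at 0.3 mg/kg/d, 0.85 at 1, 1.13 at 3, 1.18 at 10 and 0.91 at 30 mg/kg/d. That of these falls was -0.14, -0.39, -0.77, -1.08 and -1.15. At 3 mg/kg/d the rises stood near their highest median and the falls were still short of theirs.

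**Figure D5:**
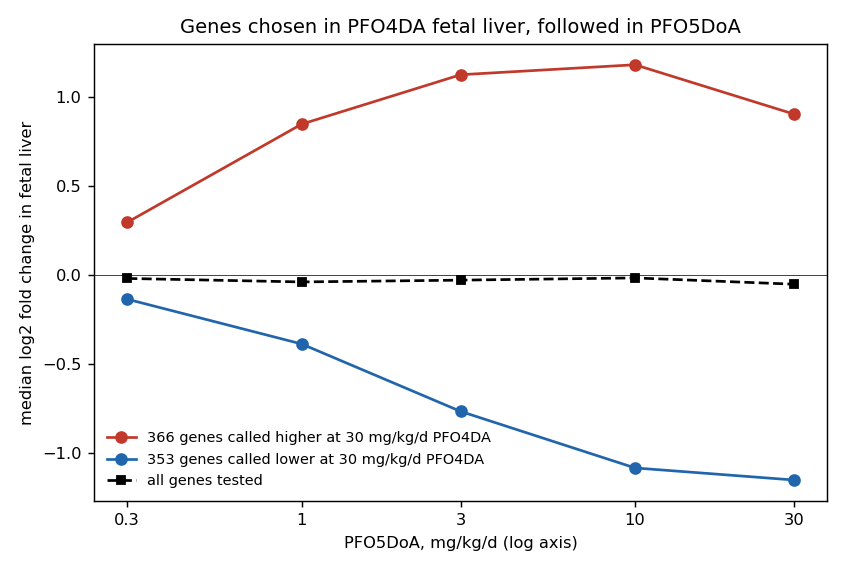
Median log2 fold change in fetal liver (vertical axis) at each PFO5DoA dose in mg/kg/d (log axis) of the 366 genes that rose and the 353 that fell at 30 mg/kg/d PFO4DA, and of all genes tested; each point is a median over genes. Between 3 and 30 mg/kg/d the upper line goes from 1.13 to 0.91 and the lower line from -0.77 to -1.15. The doses share the PFO5DoA controls. The dams at 0.3 and 1 mg/kg/d are all of the first run and those at 30 mg/kg/d all of the second.

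At the matched dose of 3 mg/kg/d the difference between the homologues was tested in a joint fit, each against its own controls. The log2 fold change differed in 105 of 11059 genes, 0.949%, with 67 higher and 38 lower under PFO5DoA (edgeR, adjusted p under 0.05). This was the 1 pair of groups compared between the chemicals. The 67 genes had a median log2 fold change of 2.49 under PFO5DoA and 0.46 under PFO4DA. The 38 genes had -1.42 and 0.12. Both sets were chosen for the difference, which favours the gap between the medians. The count was 66 without PFO5DoA dam 2274, 68 without dam 2275, 69 without PFO4DA dam 2300 and 68 without dam 2301. In the other direction, it was 131 without PFO4DA dam 2315 and 134 without PFO5DoA control dam 2278. Without dam 2278, 65 genes were higher and 69 lower under PFO5DoA, so the excess of higher genes was not kept.

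ENSRNOG00000019441 was at 3.93, 2.08, 3.10 and 6.55 CPM at 3 mg/kg/d PFO4DA and between 0.333 and 1.83 CPM in its 6 controls, with a median of 1.35 CPM. The response under PFO5DoA was larger by 4.82 on the log2 scale (95% interval 3.52 to 6.13; edgeR, adjusted p = 0.000781). ENSRNOG00000036984 was at 30.0, 71.3, 39.1 and 51.6 CPM at 3 mg/kg/d PFO4DA and between 64.2 and 152 CPM in the controls, with a median of 71.2 CPM. Those groups overlapped, and the response under PFO5DoA was lower by -2.87 (95% interval -3.77 to -1.97; edgeR, adjusted p = 0.00238). ENSRNOG00000055221 was at 165, 113, 74.6 and 58.4 CPM and between 2.13 and 55.9 CPM in the controls, where 1 library (dam 2293) was far above the other 5. The difference of 3.44 had a 95% interval of 1.40 to 5.49 and did not pass (edgeR, adjusted p = 0.176). The large rise of highest CPM was at 1879, 1253, 2839 and 920 CPM and between 338 and 965 CPM in the controls, and its difference of 3.36 passed (95% interval 2.40 to 4.31; edgeR, adjusted p = 0.0011). All were named for a large change under PFO5DoA, so the differences are biased by that choice.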

How the data were processed

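TempO-Seq libraries of maternal and fetal liver were deposited as 1 table of estimated counts per chemical, with genes named by Ensembl identifier. Per the submitters' processing notes, Partek, STAR 2.7.8a and DESeq2 were used with the genome build mRatBN7.2; which tool made the tables is not given in the sources used here. The deposited estimated counts held decimals in 12.2% (PFO5DoA) and 11.8% (PFO4DA) of values and were rounded. Totals are given in the text; the p-values measure the spread between dams.

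Each test was edgeR 4.0.16 in R 4.3.3 (TMM, filterByExpr, estimateDisp, robust glmQLFit, glmQLFTest), with Benjamini-Hochberg adjustment over all genes tested. Each chemical and life stage was fitted over its doses, without 0.1 mg/kg/d (2 dams). The fetal-maternal difference used both libraries of the dams at 0 and 3 mg/kg/d, with dam as a block. Intervals are 1.96 standard errors, which were derived from the F statistic. CPM are TMM-scaled. No 2 libraries of a group were duplicates (chi-square per degree of freedom at least 33.3). Alternatives were DESeq2 1.42.0, RLE scaling, no filter, 3 and 0 mg/kg/d alone, run as a covariate or each run alone, a replicate block, a 2-fold minimum and leaving out each dam. The steps were tested on simulated data.

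Genes to name were the 15 largest called rises and falls that averaged 5 CPM or more in the dosed or control group and lay to one side of the control mean in each dosed library; identifiers are given for the first 2 of each. The 35 gene lists drawn up for named pathways and cell types were not used, because 0 of 20311 identifiers matched a name. The libraries, lists and rules were chosen with earlier results of these data known.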

Additional observations from a re-analysis of the deposited data

Results flagged for a closer look

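In control dam 2278, ENSRNOG00000017786 was at 727.7 CPM in fetal liver, far from the other 4 controls, which were at 0.602 to 2.50 CPM. In dosed dam 2282, 15746 genes had a count, far from the other 3 dosed libraries, of which the lowest had 14053. Both gaps lie beyond a critical value that chance passes in about 1 of 20 groups. This rate does not allow for the number of groups looked at. It does not apply to ENSRNOG00000017786, which was named for a fall that rests on dam 2278. Without dam 2282 the comparison of 3 with 0 mg/kg/d called 599 genes, and without dam 2278 it called 715.

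The response differed between fetal and maternal liver in 62 genes and between PFO5DoA and PFO4DA in 105 genes, each by the test of the difference in edgeR. ENSRNOG00000036984 was among both, with a difference of -3.06 between livers (edgeR, adjusted p = 0.00287) and of -2.87 between chemicals (edgeR, adjusted p = 0.00238). ENSRNOG00000019441 was among the second, with 4.82 (edgeR, adjusted p = 0.000781).

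The 0.1 mg/kg/d group of 2 dams entered no test. In its fetal libraries ENSRNOG00000055221 was at 63.5 and 97.7 CPM, above each of the 5 controls, of which the highest was at 15.3 CPM. ENSRNOG00000019441 was at 1.53 and 8.32 CPM, above the highest of its 5 controls at 1.40 CPM. The 6 PFO4DA controls, scaled separately, were at 0.333 to 1.83 CPM for this gene, a range that holds the lower of these values. For ENSRNOG00000055221 those 6 controls were at 2.13 to 55.9 CPM, with a median of 4.85 CPM. The highest of them came near the lower value at 0.1 mg/kg/d, 63.5 CPM.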

How the results depend on the processing

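For 3 against 0 mg/kg/d in fetal liver, 815 genes were called, 1028 with DESeq2, 814 with RLE scaling and 632 with no filter. Of the 815 genes in the main fit, 438 changed at least 2-fold. Fitted alone, these doses gave 486, the first run 409 and the second run 94. With a replicate block and these doses alone the count was 474, against 486 without the block. The deviations of same-numbered dams had r of -0.0102, 0.324, -0.192 and 0.416, of mixed sign, so the numbers were not taken to pair the dams, and 1 of the 4 dosed dams correlated best with its own number. Of the 815 genes, 812 were called in the same direction with DESeq2, 452 with these doses alone and 623 with no filter, and 0 had the opposite sign in these 3 fits. Without 1 dam the count ranged from 538 to 844.

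For 3 against 1 mg/kg/d DESeq2 called 33 (edgeR 4, of 823 at an unadjusted p under 0.05), and for 10 against 3 it called 143 (edgeR 39). Without 1 dam these edgeR counts ranged from 0 to 6 and from 1 to 54 (20 without dam 2282). The maternal count of 274 was 512 with DESeq2, 136 with 3 and 0 mg/kg/d alone and 172 to 359 without 1 dam, with 172 without dam 2281. The fetal-maternal difference of 62 genes was 158 with DESeq2, 335 with no filter and, without 1 dam, 25 (2274), 29 (2275), 34 (2265), 36 (2263), 37 (2281), 38 (2280 or 2282), 40 (2278) or 121 (2264). The difference between chemicals of 105 was 230 with DESeq2, 66 to 134 without 1 dam (69 without dam 2300 and 68 without dam 2301 or 2275) and, in an alternative chosen after seeing the data, 100 with the run as a covariate. The cause of these shifts was not tested. ENSRNOG00000017786 lost its call in 7 of 12 alternatives and has no adjusted p in DESeq2. The other 3 identified genes kept direction and call in each of 17. Keeping dam 2279 was not run, because of its 45505 counts. Genes under 1 CPM rest on few counts per library, which limits their fold changes.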
